A study of Solanum tuberosum with 9 samples.

Results

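The 8 flavonol synthase loci of the diploid potato leaf were examined in 3 bulk samples whose leaf extracts differed in their effect on mustard growth. The loci are all genes whose product name in the deposited tables holds the words flavonol synthase, 8 of 24169 genes listed. The bulk samples F’ (growth stimulation, labelled hormesis), B’ (low phytotoxicity) and A’ (high phytotoxicity) were each sequenced as 3 libraries, 9 in all. All came from untreated greenhouse plants of the diploid hybrid population 15-1, all were rich in glycoalkaloids, and leaves were taken at full anthesis. The parents of this population were a diploid Solanum hybrid (female) and the wild species S. chacoense (male). Each bulk mixed leaves of 3 individuals, so the values stand for those few genotypes. How the 3 libraries of a bulk arose is not stated, so p-values measure the spread between libraries, which may be technical.

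Flavonol synthase is an iron- and 2-oxoglutarate-dependent dioxygenase that turns dihydroflavonols into flavonols such as kaempferol and quercetin. Flavanone 3-hydroxylase, a related enzyme of the same superfamily, makes the dihydroflavonols, and dihydroflavonol 4-reductase draws on the same substrates for anthocyanins. In leaves, flavonols are stored mainly as glycosides and are known as absorbers of ultraviolet light and as antioxidants. In Arabidopsis thaliana, several members of the flavonol synthase family have shown little or no enzyme activity, which is the background of the name putative inactive flavonol synthase.

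Reads counted on genes came to between 21198884 and 22388763 per library over the 22988 genes listed for all 3 bulks, so depth was alike. The summed level of 41 leaf marker genes (small subunits of ribulose bisphosphate carboxylase, chlorophyll a-b binding proteins and chloroplast carbonic anhydrases), all detected, was 99054 to 118710 CPM (counts scaled to library size) in F’, 72836 to 86904 CPM in B’ and 133097 to 170277 CPM in A’. This list differed between the bulks without overlap, and its part in the results below was not tested. The tuber list (products with the word patatin, 14 of 18 listed in all bulks) summed to 108 to 134 CPM in F’, 157 to 237 CPM in B’ and 135 to 159 CPM in A’. In this list, LOC102605260 and LOC102605593, whose names begin with patatin and not patatin-like, stayed under 0.689 CPM in every library. Nearly all of the sum thus came from other genes of the list. The flower list (28 genes) lay between 245 and 279 CPM in every library.

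There are neighbouring pairs among the loci. LOC102586931 (bases 113247 to 117768, minus strand) and LOC102585933 (bases 151759 to 157042, plus strand) lie on the same contig of the SolTub_3.0 assembly, with no chromosome given for either, 33990 bp apart with their 5′ ends facing and no listed gene between them. LOC102602715 (bases 1400218 to 1404176) and LOC102603048 (bases 1416986 to 1419967), both on the minus strand of another contig, both without a chromosome and both named putative inactive flavonol synthase 2, are 12809 bp apart, again with no listed gene between them. LOC102579177 (bases 1895344 to 1898024, plus strand) has no chromosome given either. The other 3 loci have a chromosome, namely LOC102590301 on chromosome 1 (bases 1865154 to 1866595), LOC102603761 on chromosome 3 (bases 218193 to 221291) and FLS, the only locus with a gene symbol, on chromosome 11 (bases 386251 to 391895), all on the minus strand. Start and end span the whole gene with its introns. Loci of a family may share reads, and neither the handling of reads that fit several loci nor the strand setting of the counts is given in the sources used here.

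LOC102585933, a flavonol synthase/flavanone 3-hydroxylase-like gene, was hardly read in A’ and was read in both other bulks. Its counts were 176, 128 and 184 in F’, 650, 603 and 726 in B’, and 1, 3 and 1 in A’. Every B’ library was above every F’ library, and every F’ library was above every A’ library. Means were 7.21 ± 0.958 CPM in F’, 27.0 ± 1.45 CPM in B’ and 0.0842 ± 0.0549 CPM in A’ (SD, n = 3 each). With edgeR’s quasi-likelihood test and Benjamini-Hochberg adjustment over all genes, the Log2FC was 6.31 (SE 0.348, FDR = 1.25e-08) in F’ vs. A’ and 8.22 (SE 0.254, FDR = 9.94e-09) in B’ vs. A’. Against A’ the locus passed the filter only through its F’ or B’ libraries, so a low level there could not have been tested. The pooled counts gave 84.7 times the A’ level in F’ (95% counting interval 36.0 to 262) and 316 times in B’ (135 to 973), and these wide intervals come from the 5 reads of the A’ libraries. Set directly against each other, F’ was 3.73 times lower than B’ (3.38 to 4.13), a Log2FC of -1.91 (SE 0.133, FDR = 6.36e-06 by edgeR’s test). In bulk leaves, fewer cells that express a gene and less RNA per cell cannot be told apart. The genes are those of the SolTub_3.0 assembly, and how reads of S. chacoense alleles map to them was not tested.

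**Figure D1:**
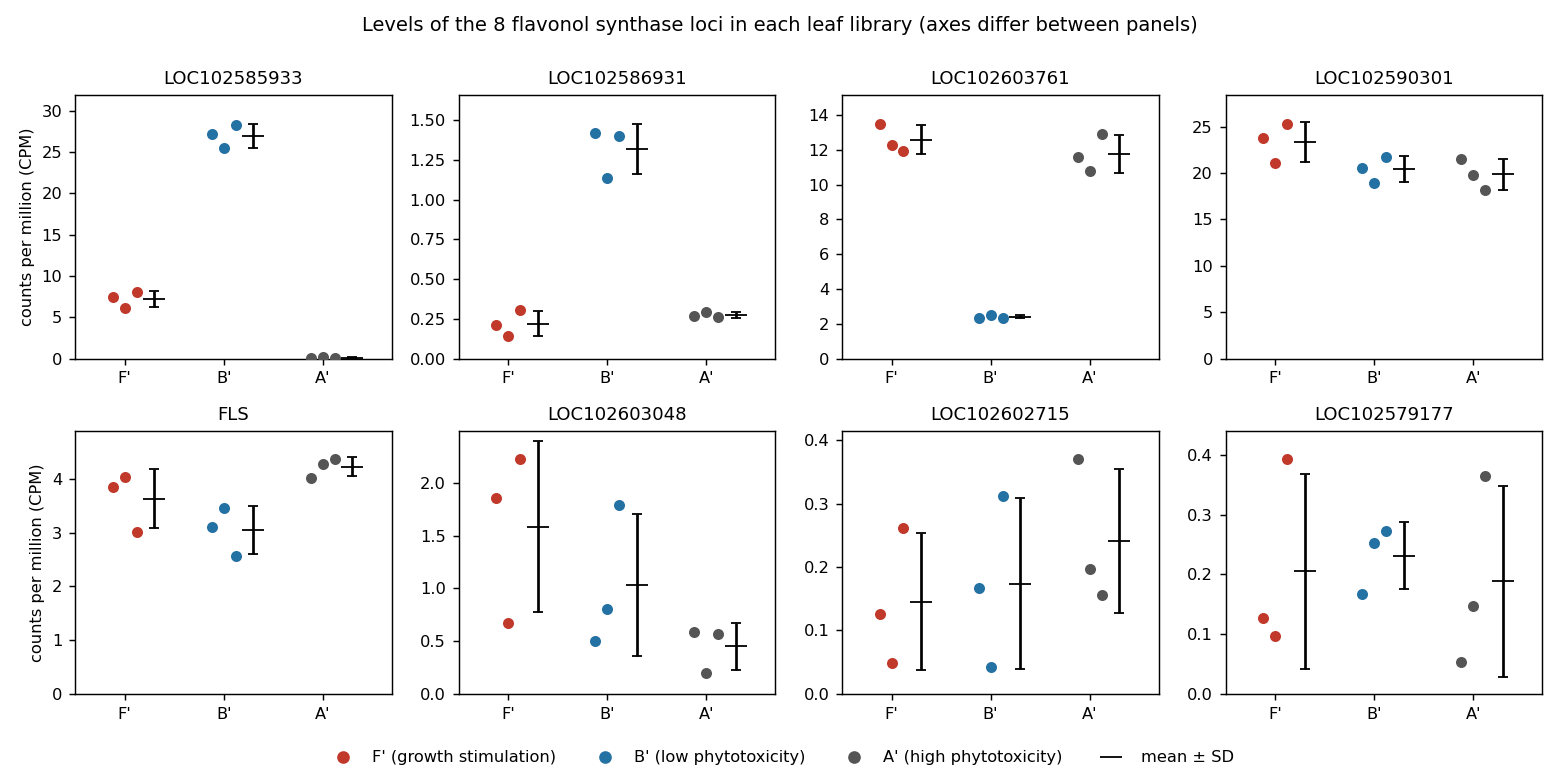
Levels of the 8 loci in the F’, B’ and A’ libraries (CPM, 1 panel per locus, each with its own axis from 0). Points are libraries, and the bar beside them is the mean with its SD (n = 3). LOC102585933 is separated in all 3 bulks, LOC102586931 is high only in B’ (1.14 to 1.42 CPM), and LOC102603761 is low only in B’ (2.34 to 2.49 CPM).

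Its neighbour LOC102586931 has the same product name but a different pattern. There were 5, 3 and 7 counts in F’, 34, 27 and 36 in B’, and 5, 6 and 5 in A’. The B’ libraries were all above the others, while F’ and A’ overlapped. Its level in B’ was 4.84 times that in A’ (counting interval 2.83 to 8.79), a Log2FC of 2.26 (SE 0.349, FDR = 0.000461 by edgeR’s test). F’ was 5.95 times lower than B’ (3.43 to 11.0), a Log2FC of -2.55 (SE 0.391, FDR = 0.000798 by edgeR’s test). The locus passed the filter in these comparisons only through its B’ libraries, so a low level in B’ could not have been tested. It was too low for the F’ vs. A’ test, and the pooled counts gave 0.813 times the A’ level in F’ with an interval of 0.374 to 1.76. A fit of all 9 libraries gave a Log2FC of -0.29 for F’ vs. A’ (SE 0.477, FDR = 0.686 by edgeR’s test). The paired loci were thus both higher in B’ than in the other bulks. In F’ vs. A’ a change passed the test at LOC102585933, while the counting interval at LOC102586931 went no higher than 1.76 times the A’ level. Changes within that interval were not detectable at the depth of LOC102586931.

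The contig of this pair holds 1 more listed gene, LOC102586269, which encodes an uncharacterized GPI-anchored protein and is assigned to chromosome 7 in the tables. It had 324, 280 and 304 counts in F’, 301, 287 and 301 in B’, and 714, 515 and 528 in A’. Both F’ and B’ lay below A’, opposite in direction to LOC102585933. The Log2FC was -1.15 in F’ vs. A’ (SE 0.147, FDR = 3.85e-05) and -1.31 in B’ vs. A’ (SE 0.155, FDR = 7.3e-05) by edgeR’s test. F’ vs. B’ did not pass the test (Log2FC 0.14, SE 0.113, FDR = 0.392).

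LOC102603761, annotated flavonol synthase/flavanone 3-hydroxylase without the suffix -like, was low in B’ alone. Counts were 320, 255 and 273 in F’, 56, 59 and 60 in B’, and 219, 219 and 248 in A’. Every B’ library was far below every other library, whereas the F’ and A’ libraries overlapped. Means were 12.6 ± 0.836 CPM in F’, 2.39 ± 0.0846 CPM in B’ and 11.8 ± 1.07 CPM in A’ (SD, n = 3 each). The locus was 4.92 times lower in B’ than in A’ (counting interval 4.16 to 5.84), a Log2FC of -2.29 (SE 0.160, FDR = 1.45e-06 by edgeR’s test). In F’ it was 5.27 times the B’ level (4.47 to 6.24), a Log2FC of 2.38 (SE 0.148, FDR = 3.52e-06 by edgeR’s test). The F’ vs. A’ difference did not pass the test (Log2FC 0.11, SE 0.130, FDR = 0.548), and the ratio of pooled counts, 1.07, had an interval of 0.968 to 1.19. The bulk with the highest level of LOC102585933 was therefore the bulk with the lowest level of LOC102603761, and between F’ and A’, which differed widely at LOC102585933, no difference at LOC102603761 passed the test.

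LOC102590301, the flavonol synthase/flavanone 3-hydroxylase-like gene of chromosome 1, varied little. It had 562, 437 and 580 counts in F’, 491, 449 and 557 in B’, and 407, 403 and 350 in A’. After scaling for library composition the bulks overlapped, with means of 23.4 ± 2.17 CPM in F’, 20.4 ± 1.40 CPM in B’ and 19.9 ± 1.67 CPM in A’ (SD, n = 3 each). No comparison passed edgeR’s test. The Log2FC was 0.25 in F’ vs. A’ (SE 0.122, FDR = 0.131), 0.05 in B’ vs. A’ (SE 0.121, FDR = 0.796) and 0.19 in F’ vs. B’ (SE 0.119, FDR = 0.271). Its spread between libraries was among the smaller of all genes, since 9.28% to 14.6% of genes tested had a lower dispersion.

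FLS on chromosome 11, the locus that carries the plain name flavonol synthase (transcript variant X2), had 91, 84 and 69 counts in F’, 74, 82 and 66 in B’, and 76, 87 and 84 in A’. In CPM, the 3 B’ libraries (2.57 to 3.46) were all below the A’ libraries (4.02 to 4.37), and the F’ libraries (3.01 to 4.04) overlapped with both. The Log2FC in B’ vs. A’ was -0.47 and did not pass the adjusted threshold (SE 0.194, FDR = 0.0853 by edgeR’s test). The same held for F’ vs. A’ (Log2FC -0.21, SE 0.190, FDR = 0.425) and for F’ vs. B’ (0.25, SE 0.212, FDR = 0.428). The paper uses the name FLS for another locus, LOC102585933, and not for this one.

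LOC102603048, a putative inactive flavonol synthase 2, was higher in F’ than in A’ and was the least even of the loci tested. It had 44, 14 and 51 counts in F’, 12, 19 and 46 in B’, and 11, 4 and 11 in A’. F’ library 2 lay far below the other F’ libraries and B’ library 3 far above the other B’ libraries, but every F’ library was above every A’ library in CPM (0.674 to 2.23 against 0.197 to 0.582). The Log2FC in F’ vs. A’ was 1.84 (SE 0.489, FDR = 0.00953 by edgeR’s test), and it stayed past the threshold under every alternative run (FDR 0.000978 to 0.0459). In B’ vs. A’ the Log2FC of 1.22 did not pass (SE 0.535, FDR = 0.104), yet without B’ replicate 1 it was 1.54 with an FDR of 0.0263, in a range of 0.0263 to 0.421 over the alternatives by edgeR and DESeq2. Without B’ replicate 3 it was 0.55 (FDR = 0.421), so the size of this difference rests on single libraries. F’ vs. B’ did not pass either (Log2FC 0.61, SE 0.521, FDR = 0.426), and without B’ replicate 3 its Log2FC was 1.28, also short of the threshold (FDR between 0.0675 and 0.773 over the alternatives). Its biological coefficient of variation was 0.321 to 0.421 in the 3 comparisons, where the median over all genes was 0.123 to 0.141, and 99.0% to 99.3% of genes varied less.

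The remaining loci were near the limit of counting. LOC102602715, the neighbour of LOC102603048 with the same name, had 3, 1 and 6 counts in F’, 4, 1 and 8 in B’, and 7, 4 and 3 in A’. LOC102579177, a flavonol synthase/flavanone 3-hydroxylase, had 3, 2 and 9 counts in F’, 4, 6 and 7 in B’, and 1, 3 and 7 in A’. At both loci all bulks overlapped, and neither passed the filter on low counts in any comparison. The pooled counts of LOC102602715 gave 0.620 times the A’ level in F’ (counting interval 0.246 to 1.50) and 0.741 times in B’ (0.321 to 1.70). Those of LOC102579177 gave 1.10 times in F’ (0.466 to 2.69) and 1.23 times in B’ (0.545 to 2.91). Ratios within these bounds could not be told from no change. These intervals cover counting error only.

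Next to LOC102603048, at bases 1429726 to 1432465 of the same strand, lies LOC102603384, a protein SRG1-like gene of the same dioxygenase superfamily. It was low as well, with 18, 10 and 12 counts in F’, 6, 8 and 18 in B’, and 3, 5 and 3 in A’. In CPM the F’ libraries were above the A’ libraries, as at LOC102603048, and the pooled counts gave 3.15 times the A’ level in F’ (counting interval 1.59 to 6.82), with no test because of the filter. On the other side, the gene of the ras-related protein RABD2a (LOC102602373) had 620, 627 and 671 counts in F’, 616, 708 and 798 in B’, and 670, 507 and 603 in A’, and the bulks overlapped.

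Counted over the family, 2 of the 5 loci that passed the filter were called in F’ vs. A’, both higher, where 35.6% of all genes tested were called. In B’ vs. A’, 3 of 6 loci were called, 2 higher and 1 lower, where 32.9% of all genes were called. In F’ vs. B’ it was 3 of 6, 1 higher and 2 lower, where 30.0% of all genes were called. With so few loci these shares are near the background, and the number of called loci is no result about the family. Changes of at least 2 in size on the log2 scale were rarer among all genes, at 3.56%, 3.41% and 3.48% in F’ vs. A’, B’ vs. A’ and F’ vs. B’, and the loci held 1, 3 and 2 of them. Against A’, LOC102585933 and LOC102586931 passed the filter only through bulks where they were high. The loci were also chosen with earlier results of these data known. These numbers are therefore no result about the family either. Libraries did not overlap at 2 of the 8 loci in F’ vs. A’ (47.7% of genes tested), at 4 in B’ vs. A’ (47.5%) and at 3 in F’ vs. B’ (44.3%).

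**Figure D2:**
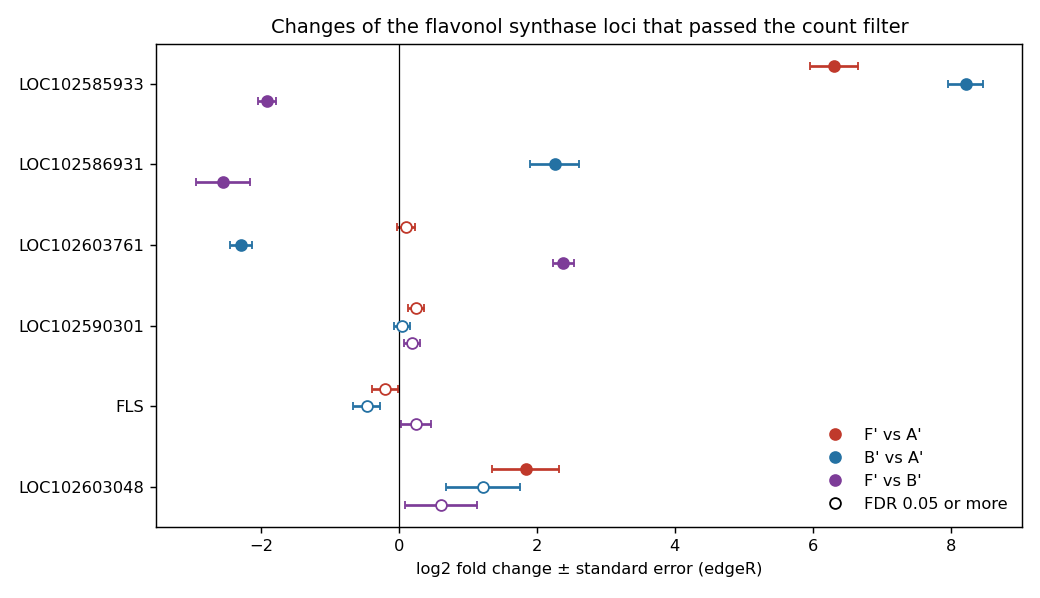
Log2 fold change with its standard error (edgeR’s quasi-likelihood test) for the 6 loci that passed the count filter, in F’ vs. A’, B’ vs. A’ and F’ vs. B’. Filled points have an FDR under 0.05 and open points do not. LOC102585933 lies at 6.31 and 8.22 against A’, and LOC102603761 lies at -2.29 in B’ vs. A’ but at 0.11 in F’ vs. A’.

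Summed over the 8 loci, the family was read most in B’. The total was 50.8, 44.5 and 51.5 CPM in F’, 55.4, 52.5 and 58.7 CPM in B’, and 38.5, 35.9 and 36.9 CPM in A’. The 3 bulks did not overlap. The total in F’ was 1.32 times and that in B’ 1.50 times the A’ total, and F’ had 0.881 times the B’ total. Each exact two-sided permutation test gave p = 0.1, the smallest that 3 against 3 libraries allow (0.1125 after Benjamini-Hochberg adjustment over 9 tests of the family).

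Without LOC102585933 the order changed, with 41.7 ± 2.96 CPM in F’, 28.6 ± 1.68 CPM in B’ and 37.0 ± 1.36 CPM in A’ (SD, n = 3 each). B’ was then the lowest bulk, at 0.773 times A’, and F’ had 1.46 times the B’ total (exact permutation p = 0.1 each). F’ and A’ overlapped (1.13 times, exact permutation p = 0.2). The gain of the family in B’ over A’, 18.5 CPM, was made up of 26.9 CPM more from LOC102585933, a difference of -9.366 CPM at LOC102603761 and small changes of the other 6 loci, of which FLS was the widest at -1.18 CPM. The gain in F’ over A’, 11.8 CPM, was made up of 7.12 CPM from LOC102585933, 3.50 CPM from LOC102590301, 1.14 CPM from LOC102603048 and 0.81 CPM from LOC102603761, with the other 4 loci between -0.592 and 0.0171 CPM.

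**Figure D3:**
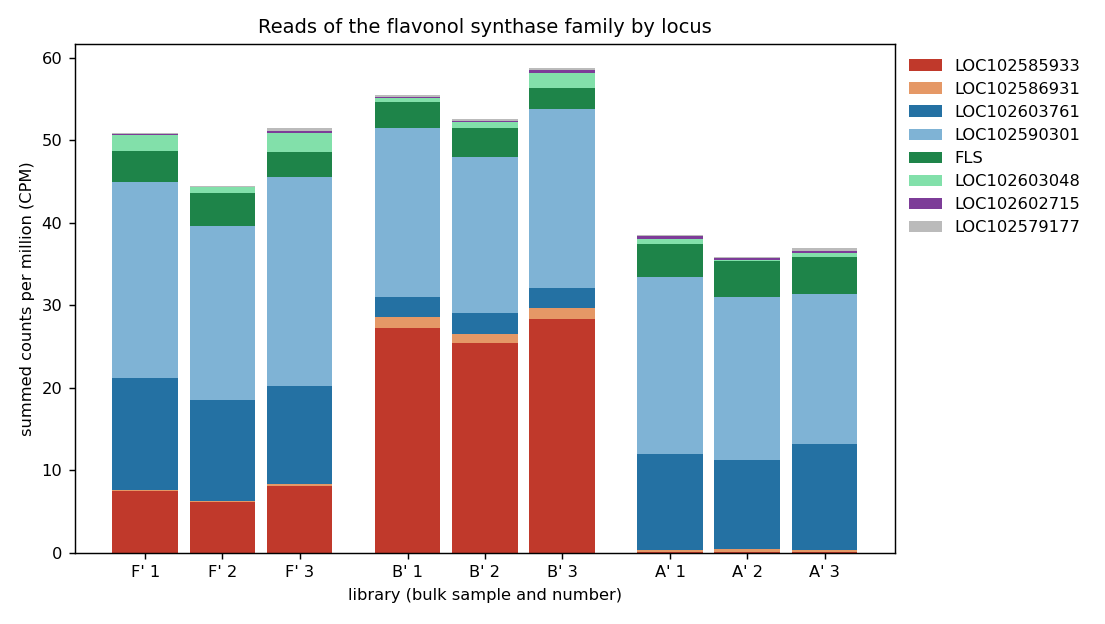
Summed level (CPM) of the 8 flavonol synthase loci in each library, stacked by locus. Totals run from 44.5 to 51.5 CPM in F’, from 52.5 to 58.7 CPM in B’ and from 35.9 to 38.5 CPM in A’, and the segment of LOC102585933 is wide in B’, narrow in F’ and hardly visible in A’.

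The makeup of the family’s reads differed accordingly. LOC102585933 took 14.6%, 13.9% and 15.6% of them in the F’ libraries, 49.1%, 48.4% and 48.2% in the B’ libraries, and 0.138%, 0.412% and 0.141% in the A’ libraries. The exact binomial 95% intervals of single libraries ran from 11.7% to 17.8% in F’, from 45.6% to 51.8% in B’ and from 0.00348% to 1.20% in A’, and no interval of one bulk met that of another. They cover counting error only, since reads amplified by PCR are not independent molecules. The exact permutation test gave p = 0.1 for each pair of bulks. These are shares of reads, not corrected for transcript length, so they compare a locus between bulks and not one locus with another.

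LOC102590301 took 47.7 ± 1.31% of the family’s reads in F’, 36.7 ± 0.570% in B’ and 53.5 ± 3.64% in A’ (SD, n = 3 each). The share of LOC102603761 was 25.8 ± 2.33% in F’, 4.32 ± 0.383% in B’ and 31.7 ± 2.83% in A’. A share falls where another rises, so shares among the 7 loci other than LOC102585933 were computed too. Among these, LOC102603761 still had 30.2 ± 2.44% in F’, 8.39 ± 0.746% in B’ and 31.8 ± 2.81% in A’, and LOC102590301 had 56.0 ± 2.03% in F’, 71.3 ± 1.46% in B’ and 53.7 ± 3.68% in A’. The low share of LOC102603761 in B’ was thus present with LOC102585933 left out, while that of LOC102590301 turned into the highest of the 3 bulks.

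The other enzymes of the flavonoid pathway were taken from a list of 51 genes by product name, the 8 loci left out. In F’ vs. A’, 21 of the 38 genes tested were called, 10 higher and 11 lower, or 55.3% where 35.6% of all genes were called, with a median Log2FC of -0.09 beside 0.02 over all genes. In B’ vs. A’, 19 of 40 were called, 7 higher and 12 lower, or 47.5% where 32.9% of all genes were called, with a median of -0.38 beside 0.02. In F’ vs. B’, 15 of 38 were called, 10 higher and 5 lower, or 39.5% where 30.0% of all genes were called, with a median of 0.07 beside -0.00021. The pathway was therefore mixed in direction in each comparison.

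At the entry of the pathway, chalcone synthase, which makes the flavonoid skeleton, was read too little for a test. CHS1A had 3, 3 and 5 counts in F’, 5, 3 and 11 in B’, and 7, 4 and 2 in A’, and neither CHS2 nor LOC102595537 exceeded 11 counts in a library. Of the chalcone isomerase genes, LOC102599379 fell in both F’ (Log2FC -0.60, FDR = 0.0220) and B’ (-0.54, FDR = 0.0453) against A’ by edgeR’s test. It had 119, 111 and 130 counts in F’, 127, 138 and 142 in B’, and 200, 149 and 126 in A’. The changes were small, and single libraries met in these unscaled counts. After scaling, means were 5.35 ± 0.326 CPM in F’, 5.56 ± 0.254 CPM in B’ and 8.16 ± 2.14 CPM in A’ (SD, n = 3 each). The other, LOC102583606, fell in F’ vs. A’ (-0.71, FDR = 0.0248) and did not pass in B’ vs. A’ (-0.17, FDR = 0.626). These calls were weak. LOC102599379 lost its call in F’ vs. A’ without A’ replicate 1 or F’ replicate 1 (FDR up to 0.105) and in B’ vs. A’ without any 1 library but A’ replicate 3 (up to 0.190), and LOC102583606 lost its call without F’ replicate 3 or any A’ library (up to 0.0820).

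Naringenin,2-oxoglutarate 3-dioxygenase is the flavanone 3-hydroxylase that supplies flavonol synthase with dihydroflavonols. LOC102590513, which carries this name with the suffix -like, had 511, 446 and 623 counts in F’, 680, 715 and 1015 in B’, and 314, 310 and 296 in A’. The bulks lay in the same order as at LOC102585933, B’ above F’ above A’, with much smaller steps. The Log2FC was 0.58 in F’ vs. A’ (FDR = 0.00282), 1.06 in B’ vs. A’ (FDR = 0.000191) and -0.49 in F’ vs. B’ (FDR = 0.0370) by edgeR’s test. The F’ vs. B’ call was lost without F’ replicate 1 or 2 or B’ replicate 2 or 3 (FDR up to 0.132). LOC102577463, the gene named flavanone 3 beta-hydroxylase without the suffix, had at most 13 counts in a library and was not tested. Whether that gene follows the same order is therefore not known.

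Flavonoid 3′-monooxygenase, a cytochrome P450 that hydroxylates the flavonoid B ring and so leads toward quercetin, was represented by 11 genes. Among these, LOC102593656 alone lacks the suffix -like in its name. It fell in F’ vs. A’ (Log2FC -0.92, FDR = 0.000478) and did not pass in B’ vs. A’ (-0.38, FDR = 0.136) by edgeR’s test. Of the genes with the suffix, LOC102588381 had the largest rise of the flavonoid list in B’ vs. A’. It had 68, 30 and 57 counts in F’, 617, 620 and 696 in B’, and 27, 30 and 42 in A’, so that B’ stood apart while F’ and A’ met at 30 counts. The Log2FC was 3.96 in B’ vs. A’ (SE 0.174, FDR = 5.82e-08), -3.53 in F’ vs. B’ (SE 0.202, FDR = 2.45e-06) and 0.44 in F’ vs. A’ (SE 0.302, FDR = 0.282) by edgeR’s test.

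Other genes of the same name went the opposite way. LOC102594469 had 23, 19 and 13 counts in F’, 2, 2 and 1 in B’, and 16, 24 and 11 in A’, and its pooled counts were 12.8 times lower in B’ than in A’ (counting interval 5.14 to 41.1), with a Log2FC of -3.56 (SE 0.533, FDR = 0.000381 by edgeR’s test). LOC102595462 had 2, 2 and 1 counts in F’, 18, 21 and 7 in B’, and 11, 13 and 11 in A’, and was 8.07 times lower in F’ than in A’ (3.15 to 26.4; FDR = 0.00119 by edgeR’s test). LOC102594469 in B’ vs. A’ and LOC102595462 in F’ vs. A’ passed the filter only through their A’ libraries. A low level in A’ could not have been tested there. LOC107062136 had 16, 12 and 22 counts in F’, 64, 55 and 34 in B’, and 96, 123 and 110 in A’. It was 7.59 times lower in F’ than in A’ (5.62 to 10.4; Log2FC -2.90, FDR = 8.37e-07) and fell in B’ too (Log2FC -1.41, FDR = 0.00112 by edgeR’s test). Of the 8 genes of this name, with or without the suffix, tested against A’, none rose and 4 fell in F’, while 1 rose and 3 fell in B’. That is 50% called in each, beside 35.6% of all genes in F’ vs. A’ (18.2% lower) and 32.9% in B’ vs. A’ (16.5% lower), and with 8 genes no more is read from it.

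Dihydroflavonol 4-reductase competes with flavonol synthase for dihydroflavonols. The 3 genes tested carry this name with the word putative or the suffix -like, and each was higher in F’ than in B’. LOC102585905, the gene with the plain name, was not tested in any comparison. LOC102584871 had 95, 64 and 82 counts in F’, 12, 13 and 14 in B’, and 34, 44 and 28 in A’. The 3 bulks did not overlap, and B’ was the lowest. The Log2FC was 2.72 in F’ vs. B’ (SE 0.260, FDR = 3.95e-05), 0.99 in F’ vs. A’ (SE 0.235, FDR = 0.00483) and -1.75 in B’ vs. A’ (SE 0.307, FDR = 0.00111) by edgeR’s test. LOC102604685 was higher in F’ than in B’ (Log2FC 0.63, FDR = 0.00445) and than in A’ (0.68, FDR = 0.00108), and LOC102604843 passed only in F’ vs. B’ (1.16, FDR = 0.0282), a call lost without any 1 library but F’ replicate 2 (FDR up to 0.118).

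Farther along, leucoanthocyanidin dioxygenase (anthocyanidin synthase) and anthocyanidin reductase lead to anthocyanidins and to flavan-3-ols. Of these 5 genes, 1 was called lower in F’ vs. A’ (20%, beside 35.6% of all genes called) and 2 in B’ vs. A’ (40%, beside 32.9%), which is near or below the background. The leucoanthocyanidin dioxygenase-like gene LOC102582752 was the one that fell in both, with 25, 19 and 11 counts in F’, 34, 26 and 20 in B’, and 84, 86 and 81 in A’. Its Log2FC was -2.37 in F’ vs. A’ (FDR = 1.63e-05) and -1.96 in B’ vs. A’ (FDR = 0.00013) by edgeR’s test, and every F’ and B’ library lay below every A’ library.

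Glycosyltransferases, which attach sugars to flavonols and anthocyanidins, made up 20 of the 51 genes. In F’ vs. A’, 7 rose and 4 fell of 17 tested, and in B’ vs. A’, 4 rose and 5 fell of 18 tested. These are 64.7% called beside 35.6% of all genes in F’ vs. A’, and 50% beside 32.9% in B’ vs. A’. LOC102602182, an anthocyanidin 3-O-glucosyltransferase 2-like gene on chromosome 7, had 266, 296 and 294 counts in F’, 285, 296 and 220 in B’, and 74, 60 and 47 in A’. It rose in F’ (Log2FC 2.05, SE 0.181, FDR = 1.19e-06) and in B’ (1.83, SE 0.211, FDR = 5.73e-05) against A’ by edgeR’s test. LOC102601849, a gene of the same name on the same chromosome, had 145, 179 and 150 counts in F’, 102, 123 and 101 in B’, and 55, 67 and 53 in A’, and rose by a Log2FC of 1.25 in F’ (FDR = 0.000156) and 0.58 in B’ (FDR = 0.0394). The B’ vs. A’ call of LOC102601849 was lost without any 1 library but B’ replicate 3 (FDR up to 0.181).

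The gene LOC102601479, anthocyanidin 3-O-glucosyltransferase 5-like on chromosome 2, was far lower in B’ than in the other bulks, as LOC102603761 was. It had 669, 629 and 655 counts in F’, 56, 85 and 64 in B’, and 473, 399 and 423 in A’. The Log2FC was -2.98 in B’ vs. A’ (SE 0.183, FDR = 6.2e-07), 3.36 in F’ vs. B’ (SE 0.166, FDR = 1.57e-06) and 0.40 in F’ vs. A’ (SE 0.121, FDR = 0.0194) by edgeR’s test. Only this small F’ vs. A’ difference depended on single libraries, with an FDR of up to 0.102 without A’ replicate 2 or 3.

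**Figure D4:**
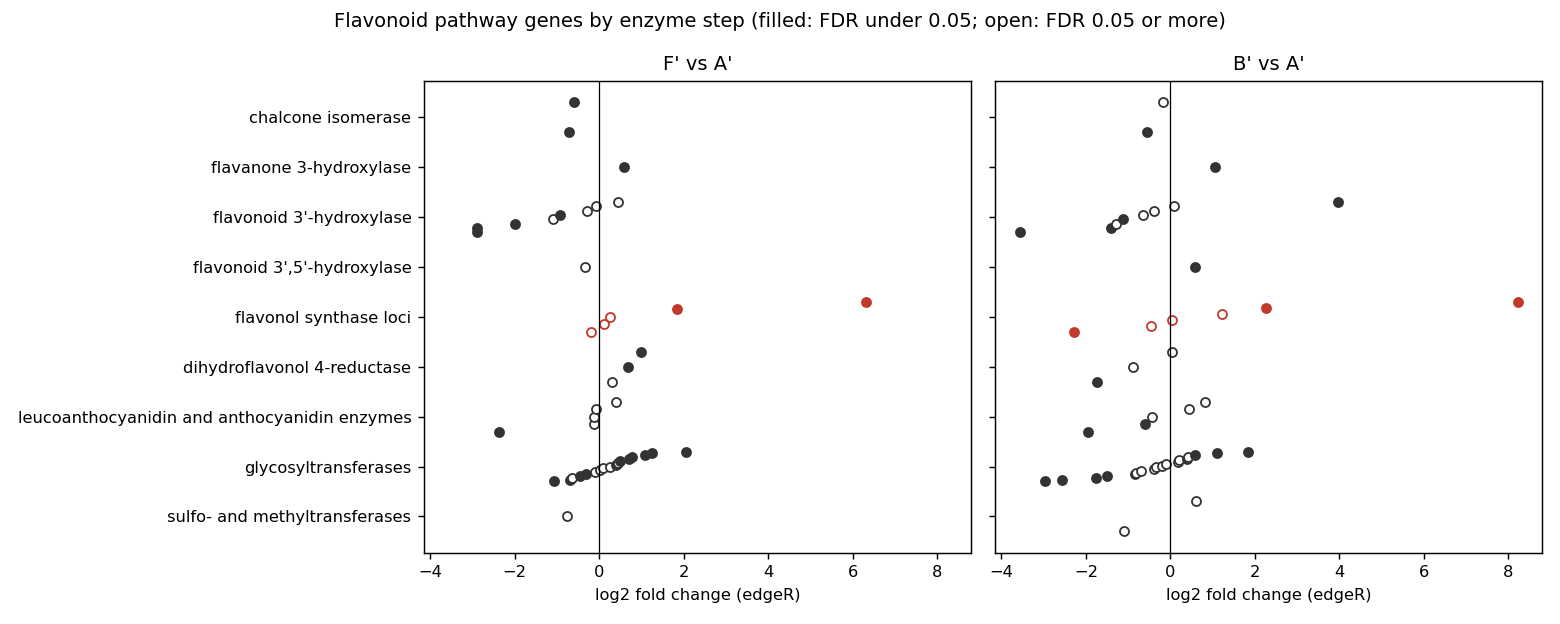
Log2 fold changes of the tested flavonoid pathway genes in F’ vs. A’ and B’ vs. A’, 1 row per enzyme step in pathway order, the flavonol synthase loci in red (small vertical shifts only separate points). Filled points have an FDR under 0.05 and open points do not. Points of the glycosyltransferases and of flavonoid 3′-hydroxylase lie on both sides of 0 in both panels, and LOC102585933 is the rightmost point in both panels.

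Among 15408 genes tested in all comparisons and with enough reads in B’, those whose log2 level followed LOC102585933 most closely over the 9 libraries (Pearson’s r as a description, since all points share 3 bulks) were LOC102603333 (cytochrome P450 71D11-like, r = 0.996), LOC102595473 (glucan endo-1,3-beta-glucosidase GI9-like, r = 0.994), LOC102580432 (transcription factor GTE12-like, r = 0.990), LOC102605656 (a probable serine/threonine-protein kinase, r = 0.990) and LOC102585485 (an ankyrin repeat-containing protein, r = 0.989). LOC102603333 had 1474, 1239 and 1556 counts in F’, 2332, 2661 and 3433 in B’, and 175, 237 and 202 in A’. LOC102595473 had 523, 533 and 541 counts in F’, 1103, 1434 and 1457 in B’, and 55, 64 and 51 in A’. They share the order B’ above F’ above A’, but their differences were smaller than at LOC102585933, with a Log2FC of 3.46 and 4.23 in B’ vs. A’ and of 2.60 and 3.04 in F’ vs. A’. None of the other 7 flavonol synthase loci was among these 5 genes. However, LOC102586931, LOC102603048, LOC102602715 and LOC102579177 were too low to enter this ranking, so their absence is no result.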

How the data were processed

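Leaf mRNA of bulk samples F’, B’ and A’ (3 libraries each) was made into directional libraries and sequenced as 100-bp paired-end reads on the BGISEQ-500. The submitters’ processing notes name TopHat2 2.0.9, Bowtie2 2.1.0 and DESeq2. The counting tool is not given in the sources used here. Raw counts were deposited by the authors as whole numbers per gene, without normalization, for genes with at least 5 reads over the 6 libraries of a comparison. The other deposited columns (the authors’ normalized counts and their mean, fold changes, log2 values, standard errors, p-values and FDR) hold the study’s own comparisons and were not used.

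Counts were filtered with filterByExpr, scaled by TMM and tested with the robust quasi-likelihood test of edgeR 4.0.16 over all genes of a comparison (19132 in F’ vs. A’, 19059 in B’ vs. A’ and 19308 in F’ vs. B’), with Benjamini-Hochberg adjustment (FDR) and a threshold of 0.05. F’ vs. B’ used the 22988 genes listed in both tables. CPM were taken over TMM-scaled library sizes of all 9 libraries. Ratios of pooled counts carry exact 95% intervals for counting error. Family totals and shares were compared by exact permutation of libraries. Gene names, contigs and coordinates are those of the tables (SolTub_3.0). No genome or transcript sequence was used here, so levels were not set per length. No libraries were duplicates, since replicate counts differed by 6.56 to 33.5 times the sampling variance. The loci and lists were chosen with earlier results of these data known. Named genes are the 8 loci, genes of the contig of LOC102585933, the 2 highest and 2 lowest called genes of the flavonoid list (1 each of the dioxygenase list) against A’, and the 5 genes most like LOC102585933 with at least 50 normalized counts in B’. Genes named beside these (chalcone, reductase and leucoanthocyanidin enzymes, the flavanone 3-hydroxylases, LOC102593656 and the neighbours of LOC102603048) were chosen after their values were seen. The pipeline was tested on simulated counts. Alternatives were DESeq2 1.42.0, upper-quartile and DESeq2 scaling, a block of replicate numbers, genes kept from a total of 1 count, a joint fit, an FDR of 0.01 and leaving out each library.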

Additional observations from a re-analysis of the deposited data

Results flagged for a closer look

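At 3 of the 8 loci the change against A’ differed between F’ and B’, shown by the direct test of F’ against B’ (edgeR’s quasi-likelihood test, Benjamini-Hochberg adjustment over all genes). LOC102585933 had a Log2FC of -1.91 (-1.909) in F’ vs. B’, with FDR = 6.36e-06, and every F’ library was below every B’ library. LOC102586931 had -2.55 (-2.553), with FDR = 0.000798, again without overlap. LOC102603761 had 2.38 (2.385), with FDR = 3.52e-06, and every F’ library was above every B’ library. Of all genes tested, 30.0% were called in this comparison.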

How the results depend on the processing

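Calls of the loci were the same under another scaling, DESeq2, no filter and a joint fit. Without 1 library the loci called were 2 in F’ vs. A’, 3 to 4 in B’ vs. A’ and 3 in F’ vs. B’. Over all genes called these ranges were 5091 to 7360, 4417 to 6431 and 4122 to 6386, beside 6817, 6274 and 5785 with all libraries, and an FDR of 0.01 left 4249, 3778 and 3459. LOC102585933 stayed between 6.08 and 6.96 (F’ vs. A’), between 7.98 and 8.87 (B’ vs. A’) and between -1.99 and -1.81 (F’ vs. B’) without 1 library. LOC102603048 in B’ vs. A’ ranged from 0.55 (without B’ replicate 3) to 1.54 (without B’ replicate 1, where it passed), and in F’ vs. B’ from 0.29 to 1.28. LOC102590301 in B’ vs. A’, not called in any setting, ranged from -0.0063 (without A’ replicate 3) to 0.12 without 1 library and was -0.00060 without B’ replicate 3, and the cause was not tested. Without the TMM factor the family total was 1.48 times A’ in F’ and 1.82 times in B’. Without LOC102585933 the family fold was 1.13 in F’ vs. A’, turned to 0.773 in B’ vs. A’ and to 1.46 in F’ vs. B’, which follows from leaving out the locus. Leaving out 1 library gave folds of 1.28 to 1.38, 1.46 to 1.54 and 0.857 to 0.921 for the full family. The share difference of LOC102585933 was 14.0 to 14.9, 48.1 to 48.5 and -34.3 to -33.4 percentage points without 1 library, and without LOC102586931 it was 49.5 in B’ vs. A’ and -35.0 in F’ vs. B’. Replicate numbers showed no clear pairing of the libraries. The correlation of deviations lay between -0.252 and 0.338 for equal numbers and between -0.454 and 0.324 for unequal numbers. With the replicate number as a block, 5875, 5599 and 7082 genes were called, and LOC102585933 had 6.30, 8.21 and -1.92, with no call of a locus changed. Per-length totals and shares were not run, since transcript lengths were not used here. Depth limits LOC102602715, LOC102579177 and LOC102586931, which had under 10 counts in most libraries or bulks.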

Other observations

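The wider enzyme superfamily of flavonol synthase, dioxygenases that need iron and 2-oxoglutarate, was taken as a list of 106 genes by product name, without the flavonol synthase loci. In F’ vs. A’, 14 rose and 19 fell of 67 tested by edgeR’s quasi-likelihood test at an FDR under 0.05, or 49.3% beside 35.6% of all genes, with a median Log2FC of 0.13 beside 0.02 over all genes. In B’ vs. A’, 14 rose and 24 fell of 70 tested, or 54.3% beside 32.9%, with a median of -0.20 beside 0.02. In F’ vs. B’, 16 rose and 15 fell of 66 tested, or 47.0% beside 30.0%, with a median of 0.06 beside -0.00021. LOC102589828, a feruloyl CoA ortho-hydroxylase 2-like gene (the enzyme leads to coumarins such as scopoletin), had 40, 31 and 23 counts in F’, 2, 1 and 2 in B’, and 1, 0 and 1 in A’. It was read in F’ almost alone, at 40.8 times the A’ level (counting interval 11.0 to 342) and 20.5 times the B’ level (8.46 to 64.4). The edgeR test gave FDR = 2.42e-05 in F’ vs. A’ and FDR = 0.000123 in F’ vs. B’. LOC102589828 passed the filter in these comparisons only through its F’ libraries, so a low level in F’ could not have been tested.

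LOC102602527, a protein SRG1-like gene, had 7, 7 and 4 counts in F’, 27, 20 and 37 in B’, and 2, 2 and 1 in A’, and was 13.4 times the A’ level in B’ (counting interval 5.52 to 42.3; FDR = 0.000162 by edgeR’s test). LOC102589337, a probable 2-oxoglutarate-dependent dioxygenase AOP1, had 6, 2 and 9 counts in F’, 1, 1 and 0 in B’, and 20, 12 and 10 in A’. It was the gene of the list with the largest fall in B’, 26.3 times below A’ (6.85 to 225; FDR = 0.000474 by edgeR’s test), and fell in F’ as well (2.85 times, 1.59 to 5.34; FDR = 0.0377), a call lost without any 1 library but F’ replicate 3 (FDR up to 0.169). LOC102579898, another SRG1-like gene, had 3, 0 and 2 counts in F’, 5, 8 and 6 in B’, and 11, 11 and 21 in A’, and was 9.91 times lower in F’ than in A’ (3.94 to 32.1; FDR = 0.00185 by edgeR’s test). In these comparisons LOC102602527 passed the filter only through its B’ libraries, and LOC102589337 and LOC102579898 only through their A’ libraries. A low level in those libraries could not have been tested.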
